A study of Mus musculus with 6 samples.

Results

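Bone morphogenetic protein (BMP) signalling and its best known target genes were followed in 10 genes: the ligand gene Bmp4, the receptor genes Bmpr1a and Bmpr2, the transducer genes Smad1 and Smad5, the inhibitor gene Smad6, and the target genes Id1, Id2, Id3 and Id4. They were taken by gene symbol from the deposited isoform table, out of 31879 genes with a usable isoform, and all 10 reached the level needed for testing, which 13268 genes did. The members comprise 40 assembled isoforms. The cells were TT-FHAgo2, a clonal line of mouse embryonic stem cells in which doxycycline controls Argonaute 2 (Ago2). Ago2 is the effector through which microRNAs find and repress target transcripts. All cultures had been propagated with 0.1 µg/mL doxycycline, in medium with serum and leukemia inhibitory factor. For one condition the dose went up to 2.5 µg/mL over 48 h, a level at which the labels put Ago2 at the wild-type amount. The other was taken off doxycycline for 96 h. Each condition had 2 strand-specific polyA libraries, called number 0 and number 1 after the column names. The conditions differ in the drug itself and in the hours as well as in Ago2, and these cannot be told apart here.

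BMP ligands bind pairs of type I and type II receptor kinases, of which Bmpr1a and Bmpr2 encode one each. The type I receptor phosphorylates Smad1 and Smad5, which enter the nucleus with Smad4 and activate genes, the Id genes among the first. Smad6, itself a target, inhibits the pathway. Id proteins carry a helix-loop-helix domain without the basic region that binds DNA, and they hold back the E proteins and other helix-loop-helix factors by pairing with them. In embryonic stem cells, BMP4 together with leukemia inhibitory factor is known to sustain self-renewal in medium without serum, and Id genes are part of that response.

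Because the study concerns microRNAs and their targets, the members were searched for pairing sites of 3 microRNA families. Those of miR-291a-3p and miR-17-5p are abundant in embryonic stem cells, and let-7 is not. The mature sequences below are RefSeq's on GRCm38.p6, with the seed (bases 2 to 8) in capitals. The seeds of the first and second family overlap and are shifted by 1 base.
mmu-miR-291a-3p: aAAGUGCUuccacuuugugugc
mmu-miR-302b-3p: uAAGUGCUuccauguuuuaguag
mmu-miR-17-5p: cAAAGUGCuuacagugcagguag
mmu-miR-20a-5p: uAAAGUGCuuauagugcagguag
mmu-let-7a-5p: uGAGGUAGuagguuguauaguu

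For each member, GENCODE mouse release 21 supplied the longest 3′ untranslated region, which was read for matches of at least 7 bases. A match to all of bases 2 to 8 is called a 7mer-m8, a match to bases 2 to 7 followed by A a 7mer-A1, and a match with both an 8mer. Sites are shown as DNA with the matched bases in capitals, and positions count from 1 at the first base of the region. Sites of the miR-17-5p family lay in Bmpr2 (2 sites), Smad5, Smad6, Id1 and Id4, and those of Bmpr2, Smad5, Smad6 and Id4 were 7mer-m8 sites.
Bmpr2, 201 to 207: gttttttaagttttGCACTTTtgttta
Bmpr2, 3877 to 3883: tatggtatcacactGCACTTTtactct
Smad5, 778 to 784: aatcttttcattttGCACTTTtatggg
Smad6, 233 to 239: gaaacaagaaagacGCACTTTggcttg
Id4, 2264 to 2270: tgttattaaaaaggGCACTTTttgcct
Id1, 552 to 558, a 7mer-A1: tgttattaaacaaaCACTTTAgataa

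Smad5 was the one member with sites of the miR-291a-3p family, a 7mer-m8 and an 8mer, and it also held the only let-7 site.
Smad5, 3280 to 3286, miR-291a-3p family: gtcacttccctggcAGCACTTgggtcc
Smad5, 4008 to 4015, miR-291a-3p family: taggtcagtgctcgAGCACTTAgcaggc
Smad5, 3071 to 3077, let-7a-5p family: gtaacacttggggtTACCTCAcagtct

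Such sites are common: of 11508 tested genes with an annotated region, 22.5% held at least 1 site of 7 or 8 bases for the miR-17-5p family, 21.7% for the miR-291a-3p family and 18.5% for let-7. The regions of the members differ in length, from 339 nt in Bmp4 to 8529 nt in Bmpr2, and a longer region holds more sites.

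Levels were deposited as FPKM, fragments per kilobase of transcript and per M (mega) fragments of the library, and were summed over the isoforms of a gene. Errors are SD over n = 2 libraries. Changes are differences in log2(FPKM + 0.5), without minus with doxycycline, and are understated for low genes. Rise and fall name this difference and not a course in time, since cells held at 0.1 µg/mL were not measured. The changes were tested with limma across all 13268 genes with Benjamini-Hochberg adjustment (threshold 0.05). The library total behind the scaling is not stated. In the 2 libraries with the number 1, low values stepped in whole reads within 0.1 read in 100% of cases, at steps that correspond to about 46.1 M and 46.3 M fragments. At those steps the members rest on between 243 fragments (Bmp4 without doxycycline) and 4520 (Bmpr1a without doxycycline), a counting error of 6.4% and 1.5%. For both number 0 libraries, 34.0% and 34.5% of such values were whole, and no total was read from them. Whether the 2 libraries of a condition are separate cultures is not given by the labels, and all p-values rest on a library-to-library spread that may be technical.

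Ago2 RNA measured 35.2 and 36.7 FPKM with doxycycline and 28.7 and 28.8 without it (log2 change -0.32, SE 0.08, limma adjusted p = 0.0293). Of all genes tested, 20.9% were called lower, so this difference cannot check the labels. The Ago2 call was lost with TPM (limma adjusted p = 0.149), with annotated isoforms alone (0.0517) and with the most abundant isoform alone (0.413). It was also lost when any 1 library was left out, with changes from -0.35 to -0.29. How much of this RNA comes from the doxycycline-driven gene was not tested. All 10 listed markers of embryonic stem cells were measured, and 2 of them were called higher and 3 lower without doxycycline. Their summed levels, with Dppa5a the highest at a mean of 1811 FPKM, were 4262 and 4752 FPKM with doxycycline and 4436 and 5012 FPKM without. Fibroblast markers summed to between 2.36 and 2.97 FPKM, with Thy1 at a mean of 2.08 FPKM, and Col1a2, Col3a1, Lum, Dcn and Postn stayed below 0.1 FPKM in every library. The 5 mesoderm markers summed to 1.41 to 1.75 FPKM and the 6 primitive endoderm markers to 1.47 to 1.83 FPKM, of which Gata6 and Sox17 stayed below 0.1 FPKM. Trophoblast markers summed to 20.5 to 22.4 FPKM, nearly all of it Tfap2c, with Cdx2 below 0.1 FPKM. The summed fibroblast, primitive endoderm and trophoblast markers were slightly higher in both libraries without doxycycline, and the 1 primitive endoderm marker that reached the minimum was called higher. The part of these markers in the results was not tested.

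Of the 10 members, Bmp4 and Id3 fell, Bmpr2, Smad6 and Id4 rose, and Bmpr1a, Smad1, Smad5, Id1 and Id2 did not pass the threshold. The 5 calls are 50% of the members, against 40.3% of all genes tested, so the number of calls is near that of genes at large. By direction, 19.4% of all genes were higher and 20.9% lower without doxycycline. The conditions did not overlap for 7 members, against 73.1% of all genes: 4 were higher and 3 lower, where all genes gave 33.1% and 40.0%. The median change of the members was 0.02, that of all genes -0.06. Under the other ways of scaling, the share of higher genes among all calls, 48.2% as deposited, was 39.0% with the condition medians set equal, 56.2% with the median change of all genes set to 0 and 67.7% with TPM (transcripts per M). Bmp4, Id3, Id4 and Smad6 passed in the same direction in each of the 16 alternative fits.

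**Figure D1:**
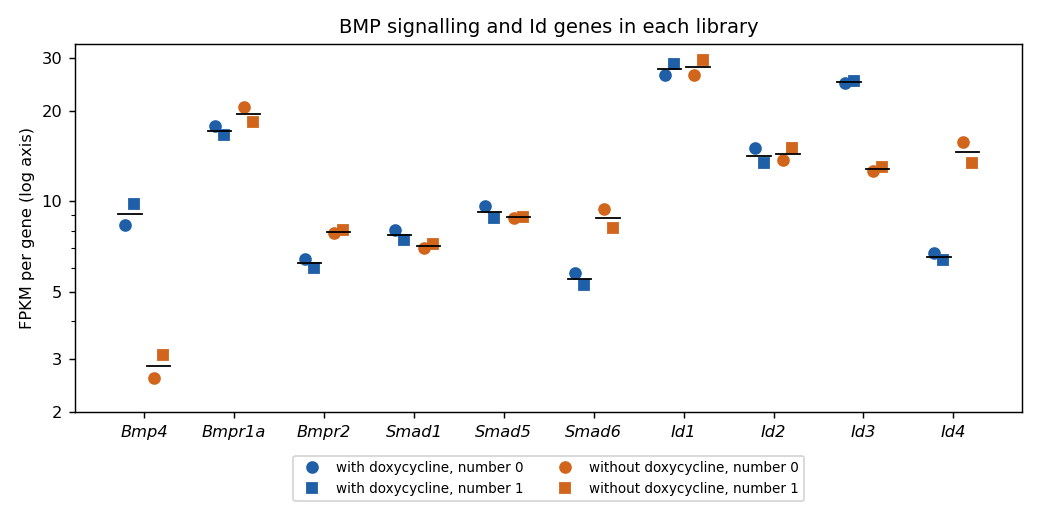
Level of each member in each library, in FPKM on a log axis. Circles are libraries numbered 0 and squares those numbered 1, blue with and orange without doxycycline, and black lines are the means of 2. Bmp4 and Id3 sit lower and Smad6 and Id4 higher without doxycycline, with no overlap, while Id1, Id2 and Smad5 overlap.

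Bmp4 encodes the ligand of the pathway (chromosome 14, 47003195 to 47010344, minus strand, build NCBIM37). Its level was 8.37 and 9.79 FPKM in the libraries with doxycycline and 2.59 and 3.09 FPKM in those without. Every library without doxycycline lay far below both with it. The mean was 9.08 ± 1.001 FPKM with and 2.84 ± 0.353 FPKM without (SD, n = 2), 0.313 of the mean with doxycycline. The log2 change was -1.52 (SE 0.13, limma adjusted p = 0.00262), and it ranged from -1.63 to -1.41 with 1 library left out. Among the 13268 genes, the change of -1.52 was rank 66 of the falls. Its level went from percentile 44.8 of the tested genes to percentile 19.4. In bulk RNA, fewer cells that express a gene and less RNA per cell cannot be told apart, and this holds for each change given here.

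The fall of Bmp4 ran through its 3 main assembled isoforms. The 4-exon form of 2064 nt measured 6.18 and 6.07 FPKM with doxycycline and 1.31 and 2.13 without. A 3-exon form of 1633 nt, which the assembly starts at another site, measured 1.71 and 3.20 FPKM with and 0.390 and 0.793 without. A short form of 517 nt held 0.444 and 0.519 FPKM with and 0.109 and 0.173 without. Each of these forms was lower in both libraries without the drug than in either with it. The 517-nt form held between 4.2% and 5.58% of the gene's FPKM in all 4 libraries, while the 2064-nt form ranged from 50.4% to 73.9%. The lowest share was in the library without doxycycline numbered 0, where a form of 1849 nt measured 0.599 FPKM, against at most 0.0391 FPKM in the others. The division of reads among overlapping isoforms is an estimate, and it is less certain than the sum.

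The type I receptor gene Bmpr1a (chromosome 14, 35223920 to 35316527, minus strand) was the most abundant pathway component among the members that are not Id genes. It measured 17.8 and 16.6 FPKM with doxycycline and 20.6 and 18.3 without. The libraries did not overlap, but the change of 0.17 (SE 0.10) missed the threshold (limma adjusted p = 0.211). A form of 5480 nt carried between 93.8% and 97.2% of it.

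Bmpr2 (chromosome 1, 59820256 to 59934459, plus strand), the type II receptor gene, measured 6.45 and 6.04 FPKM with doxycycline and 7.87 and 8.02 without. The mean was 6.24 ± 0.289 FPKM with and 7.94 ± 0.106 FPKM without, 1.27 times the mean with doxycycline (log2 change 0.33, SE 0.09, limma adjusted p = 0.0373). It was the least secure of the 5 calls: leaving out any 1 library ended it (adjusted p from 0.105 to 0.200), as did setting the condition medians equal (0.0638), leaving low genes unfiltered (0.0701), using isoforms that match an annotated transcript alone (0.118) and using the most abundant isoform alone (log2 change 0.18, adjusted p = 0.541). Over the 16 alternatives its adjusted p ranged from 0.0160 to 0.541. The isoforms stand as follows. The full form of 11477 nt measured 6.45 and 5.47 FPKM with and 7.87 and 5.84 FPKM without doxycycline, so that its conditions overlapped. A form of 3507 nt, whose 3′ end lies upstream at 59927703, measured 0.571 FPKM with and 1.93 FPKM without doxycycline in the libraries numbered 1, and was listed at 0 in both libraries numbered 0. The presence of the short form thus went with the library number and not with the condition.

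**Figure D2:**
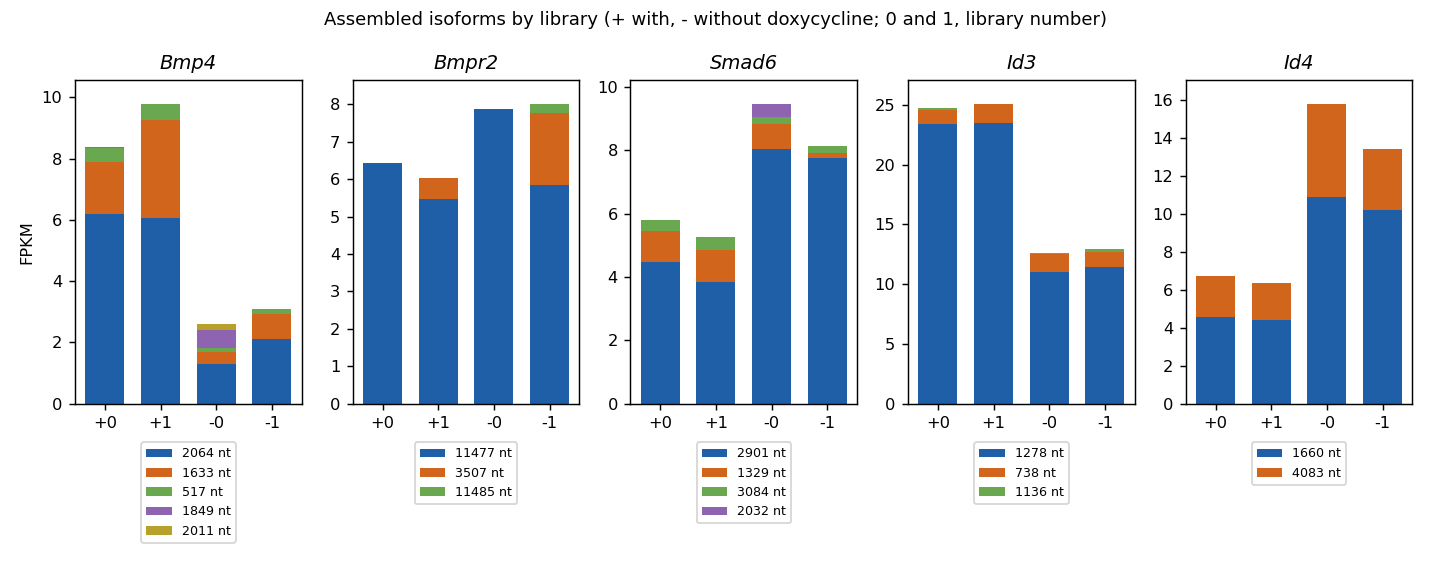
FPKM of the assembled isoforms of the 5 members that passed the threshold, stacked by library. Labels + and - mean with and without doxycycline, and 0 and 1 the library number. In Bmp4, Smad6 and Id4 the main form moved with the gene, while the 3507-nt form of Bmpr2 appears only in the libraries numbered 1.

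Neither transducer gene passed the threshold. Smad1 (chromosome 8, 81862294 to 81923417, minus strand) measured 8.02 and 7.47 FPKM with doxycycline and 6.99 and 7.24 without, a change of -0.11 (SE 0.09) that did not pass (limma adjusted p = 0.343). Smad5 (chromosome 13, 56804371 to 56843738, plus strand), which holds sites of all 3 microRNA families, measured 9.65 and 8.80 FPKM with and 8.82 and 8.91 without (-0.05, SE 0.09, limma adjusted p = 0.656). Its libraries overlapped. The 6584-nt form that matches the annotated transcript read for these sites measured 7.63 and 5.98 FPKM with and 7.90 and 7.14 FPKM without, and overlapped as well. The sign of both changes depended on the scaling: with TPM they were 0.04 for Smad1 and 0.10 for Smad5, neither of them past the threshold.

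Smad6, the inhibitor gene (chromosome 9, 63800883 to 63869900, minus strand), measured 5.79 and 5.27 FPKM with doxycycline. Without it, the level was 9.48 and 8.14 FPKM. The mean was 5.53 ± 0.365 FPKM with and 8.81 ± 0.948 FPKM without, 1.59 times the mean with doxycycline. The conditions were well apart (log2 change 0.62, SE 0.11, limma adjusted p = 0.0128). The rise lay in the 2901-nt form that matches the annotated coding transcript, at 4.49 and 3.86 FPKM with and 8.04 and 7.78 FPKM without. A form of 1329 nt that starts elsewhere went the other way in values, from 0.981 and 1.01 FPKM to 0.802 and 0.149 FPKM. The share of the 2901-nt form was thus 77.5% and 73.1% with and 84.9% and 95.6% without doxycycline.

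The Id genes, which the pathway activates, parted from each other. Id3 (chromosome 4, 135699412 to 135701670, plus strand) measured 24.8 and 25.1 FPKM with doxycycline and 12.6 and 12.97 without. Libraries of a condition differed by under 0.5 FPKM. The mean was 24.9 ± 0.234 FPKM with and 12.8 ± 0.231 FPKM without, 0.514 of the mean with doxycycline (log2 change -0.93, SE 0.08, limma adjusted p = 0.00259). The fall was in the spliced form of 1278 nt, from 23.4 and 23.5 to 11.04 and 11.4 FPKM. A form of 738 nt that GENCODE lists as a retained intron measured 1.17 and 1.59 FPKM with and 1.47 and 1.27 without, which overlap, and made up 4.71% and 6.34% of the gene with and 11.6% and 9.81% without.

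Id4 (chromosome 13, 48356366 to 48361398, plus strand) went in the opposite direction. It measured 6.75 and 6.38 FPKM with doxycycline and 15.8 and 13.4 FPKM without. The mean was 6.56 ± 0.257 FPKM with and 14.6 ± 1.698 FPKM without, 2.23 times the mean with doxycycline (log2 change 1.09, SE 0.11, limma adjusted p = 0.00333). The lowest library without the drug lay far above the highest with it. Its 2 forms, which differ at their start and their end, were both higher without it: the 1660-nt form went from 4.57 and 4.397 to 10.9 and 10.2 FPKM, and the 4083-nt form went from 2.17 and 1.99 to 4.94 and 3.22 FPKM. The short form held 67.8% and 68.9% of the gene with and 68.8% and 76.0% without.

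Id1 (chromosome 2, 152561987 to 152563146, plus strand), the most abundant of the members, measured 26.2 and 28.7 FPKM with doxycycline and 26.2 and 29.5 FPKM without. Id2 (chromosome 12, 25778666 to 25780955, minus strand) measured 15.0 and 13.4 FPKM with and 13.7 and 15.1 FPKM without. Both overlapped between conditions. Their log2 changes were 0.02 each (SE 0.10, limma adjusted p = 0.894 for Id1 and 0.887 for Id2), and their signs turned in 3 of the 16 alternatives each, with values between -0.07 and 0.18.

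**Figure D3:**
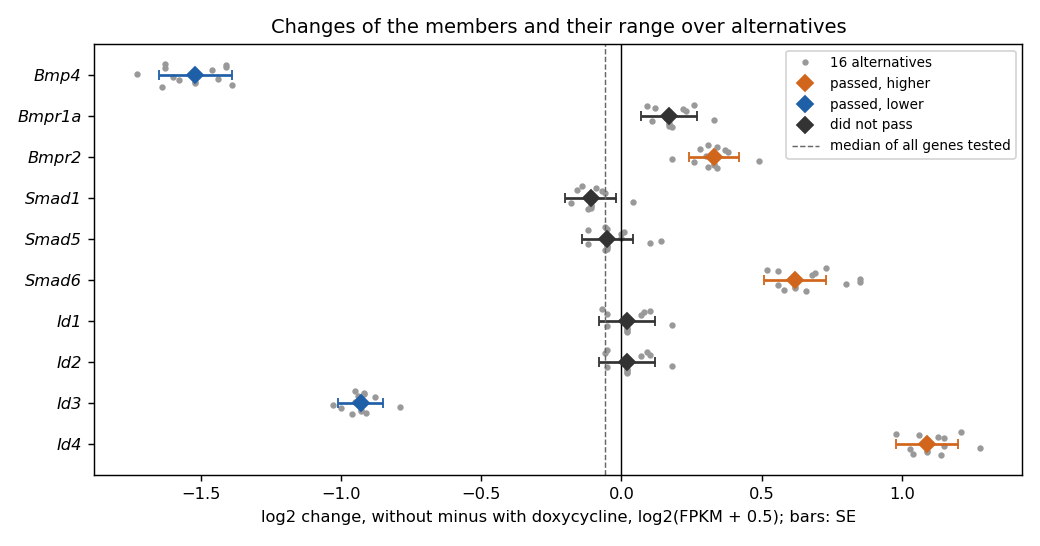
Log2 change of each member, without minus with doxycycline, on the log2(FPKM + 0.5) scale, with its SE as a bar. Orange and blue diamonds passed the threshold, grey points are 16 alternative fits, and the dashed line is the median of all genes tested. The points of Bmp4, Id3, Smad6 and Id4 stay on one side of 0, and those of Smad1, Smad5, Id1 and Id2 fall on both sides.

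Ratios of 2 genes in the same library are nearly free of the scaling of that library, apart from the 0.5 FPKM added. The log2 ratio of Id3 to Id1 was -0.08 and -0.19 with doxycycline and -1.02 and -1.16 without, a difference of -0.95. Against Id2, Id3 stood at 0.70 and 0.88 with and -0.11 and -0.21 without, again a difference of -0.95. Id3 was thus the more abundant of that pair with the drug and the less abundant without it. The ratio of Bmp4 to its receptor gene Bmpr1a went from -1.05 and -0.73 to -2.77 and -2.39, a difference of -1.69. The ratios of Bmpr2 to Bmpr1a and of Smad1 to Smad5 differed by 0.15 and -0.06. In all 5 ratios the conditions did not overlap, which with 2 against 2 libraries gives an exact two-sided permutation p of 0.33, also after adjustment over the 5. That is the smallest this design allows.

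Added together in the deposited FPKM, the 4 Id genes changed little while their makeup changed. Their summed level was 72.8 and 73.6 FPKM with doxycycline and 68.4 and 71.0 without. The sum was thus slightly lower in both libraries without doxycycline, and it was not computed under the other ways of scaling. Id3 supplied 34.1% ± 0.0445 of it with and 18.4% ± 0.154 without (SD, n = 2), and Id4 8.97% ± 0.423 and 21.0% ± 2.99. Id1 supplied 37.5% ± 2.08 and 40.0% ± 2.32, and Id2 19.4% ± 1.70 and 20.7% ± 0.830. These shares describe the members and carry no test.

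**Figure D4:**
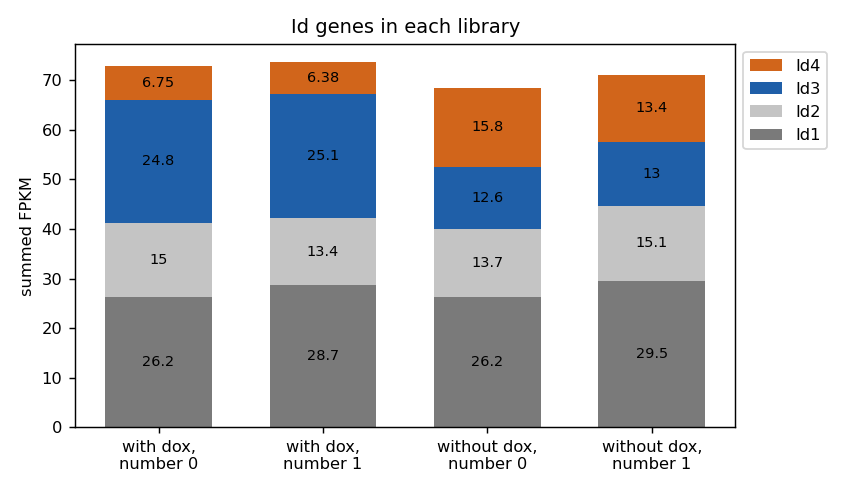
Summed FPKM of Id1, Id2, Id3 and Id4 in each of the 4 libraries, with the FPKM of each gene written in its segment. The stacks have nearly the same height, from 68.4 to 73.6 FPKM, while the Id3 segment is smaller and the Id4 segment larger without doxycycline.

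With doxycycline, the order of the levels per length ran from Id1 (27.5 FPKM) over Id3 (24.9), Bmpr1a (17.2), Id2 (14.2), Smad5 (9.23), Bmp4 (9.08), Smad1 (7.74), Id4 (6.56) and Bmpr2 (6.24) to Smad6 (5.53). The libraries of Smad5 and Bmp4 overlapped, as did those of Id4 and Bmpr2. Without doxycycline the order was Id1 (27.9 FPKM), Bmpr1a (19.5), Id4 (14.6), Id2 (14.4), Id3 (12.8), Smad5 (8.86), Smad6 (8.81), Bmpr2 (7.94), Smad1 (7.11) and Bmp4 (2.84). Here Id4 could not be told from Id2 by its libraries, nor Smad5 from Smad6. Bmp4 was the sixth with the drug and the last without it.

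Set beside the sites shown above, the 3 members that rose, Bmpr2, Smad6 and Id4, each held a 7mer-m8 site of the miR-17-5p family in the annotated region. In Id4 the site starts 830 nt before the end of that region, while the assembled 1660-nt form, which held 67.8% to 76.0% of Id4, ends 1993 nt before the longer form. By these distances that form lacks the site, and its FPKM was higher in both libraries without doxycycline. Of the 5 members with a site of 7 or 8 bases for that family, 3 rose and 0 fell, the others being Smad5 and Id1. Of the 5 without one, 0 rose and 2 fell. At an unadjusted limma p under 0.05 the counts of 0 stay 0. For Smad1, the region read belongs to a transcript whose form held 3.62% to 4.18% of the gene. The 3099-nt form, with 93.9% to 95.1%, ends elsewhere, and its region was not read. For Id1, the region read belongs to a 1160-nt form that held 1.9% to 2.91% of the gene, and the site starts 12 nt before its end. The 934-nt form, with 97.1% to 98.1% of Id1, ends at the same base. Among all tested genes with such a miR-17-5p site, 26.9% were higher and 14.1% lower. Without one, 19.2% were higher and 21.6% lower. For the miR-291a-3p family these shares were 28.2% and 13.9% with a site, and 18.9% and 21.6% without. The sites shown for Bmpr2, Smad6 and Id4 also match bases 2 to 7 of the miR-291a-3p family, so they are not particular to miR-17-5p. The Bmpr2 call among the 3 is the one lost in 8 of 16 alternatives. The 8mer of the miR-291a-3p family in Smad5 came with no call. With 10 genes this is a description, and binding at any of these sites was not measured.

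Phosphorylated Smad1 and Smad5 are known to bind GC-rich elements, among them GGCGCC, a palindrome. RefSeq promoter windows on GRCm38.p6, from 250 bases before to 50 after a gene's start, were found for 9 members, all except Id1. GGCGCC lay in those of Bmpr1a, Bmpr2, Smad5, Id2 and Id4, and for Smad5 in 2 overlapping windows of its 3. Of all 32851 windows, counted per window and not per gene, 11.9% held it. The other Smad motif searched, GTCT on either strand, is in 88.0% of all windows. GGCGCC was not found in the windows of Bmp4, Id3, Smad1 and Smad6. GTCT had 2 matches in Bmp4, 3 in Id3, 2 in Smad6, 1 each in Bmpr1a and Id2, 1 or 2 in the windows of Smad5 and 0 in Bmpr2, Smad1 and Id4. Members that rose and members that did not pass are found with and without GGCGCC. The GGCGCC matches are shown in capitals with their neighbours, in the direction of the gene.
Id2, chr12:25096318-25096323, minus strand: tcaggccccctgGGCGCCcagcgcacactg
Id4, chr13:48260968-48260973, plus strand: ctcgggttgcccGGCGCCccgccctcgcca
Bmpr2, chr1:59764174-59764179, plus strand: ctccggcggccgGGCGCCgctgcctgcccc
Bmpr1a, chr14:34502739-34502744, minus strand: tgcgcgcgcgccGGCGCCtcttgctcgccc
Smad5, chr13:56703033-56703038, plus strand: ccccggcgagcgGGCGCCgagcgcttgtcc
All of these windows are GC-rich, from 59.3% in Bmpr2 to 79.3% in Bmpr1a, and such letters are common in GC-rich sequence. A match is no evidence of binding, and elements farther away were not read.

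The other genes of the pathway were read from the same fit by role. Of 37 tested genes on the lists that are not members, 19 were higher and 4 lower without doxycycline, and 14 did not pass. Those calls are 62.2% of them, where all genes gave 40.3% (19.4% higher and 20.9% lower). The median change was 0.40 for these 37 genes and -0.06 for all genes. Bmp7, Chrd, Crim1, Gata2, Msx2 and Tal1 averaged under 1 FPKM with doxycycline and were tested only through their level without it. These counts, those of their lists below and the median therefore lean to rises. The lists were also chosen with earlier results of these data known.

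Among 16 ligand genes 3 were tested, and 13 stayed under 1 FPKM in both conditions. Bmp7, which encodes another BMP, rose while Bmp4 fell, from 0.678 and 0.929 to 1.87 and 1.81 FPKM (log2 change 0.85, limma adjusted p = 0.0121). The Bmp7 call was lost with the most abundant isoform alone and with annotated isoforms alone, with adjusted p up to 0.162. Gdf3, a stem cell ligand of the same superfamily, stood at 117 and 103 FPKM with and 129 and 122 without, a change of 0.19 that did not pass.

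Receptors and co-receptors rose in 6 of 8 tested cases and fell in 0 (0 also at an unadjusted limma p under 0.05), with a list median of 0.54. Of all genes tested, 19.4% were higher and 20.9% lower. The co-receptor gene Rgma rose from 1.33 and 1.24 to 2.999 and 3.55 FPKM (log2 change 1.07, limma adjusted p = 0.00469), and its relative Rgmb from 1.96 and 1.62 to 3.51 and 3.10 FPKM. Acvr1, another type I receptor gene, rose from 2.38 and 2.53 to 4.05 and 5.47 FPKM, and the co-receptor gene Eng from 12.7 and 15.1 to 22.3 and 28.2 FPKM. Acvr2b and Bmpr2 were the other rises. The Acvr1 call was lost without the filter on low values (adjusted p = 0.0538) and that of Rgmb with the most abundant isoform alone (0.0522).

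Of 18 genes for extracellular antagonists, 7 were tested: 3 rose, 1 fell and 3 did not pass, with a median of 0.40. Crim1, which encodes a membrane protein that binds BMPs, rose from 0.341 and 0.305 to 1.25 and 1.07 FPKM. Chrd, the gene of chordin, rose from 0.918 and 0.948 to 1.48 and 1.54 FPKM, and Fstl1 from 35.0 and 36.1 to 49.8 and 50.7 FPKM. The activin and BMP antagonist gene Fst fell from 2.304 and 2.22 to 1.32 and 1.47 FPKM. The calls of Chrd and Fst, both low genes, were lost in 5 and 4 of their 13 alternatives, and that of Fstl1 without either doxycycline library. Noggin (Nog) stayed under the minimum.

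Smad4, the partner of all receptor Smads, measured 22.8 and 28.1 FPKM with and 20.5 and 28.8 without. None of the 3 tested transducer genes passed the limma threshold, and their unadjusted p values were 0.252 for Smad1, 0.575 for Smad5 and 0.786 for Smad4. Of 12 intracellular inhibitors, 5 rose, 1 fell and 6 did not pass (median 0.17), where 19.4% of all genes rose and 20.9% fell. Tob1, an antiproliferative protein that also represses Smad signalling, rose most, from 12.2 and 11.1 to 45.0 and 41.6 FPKM (log2 change 1.85, limma adjusted p = 0.00169). Pmepa1 rose from 8.21 and 9.07 to 12.8 and 18.7 FPKM and Skil, a Smad corepressor gene, from 17.3 and 18.7 to 26.7 and 24.1 FPKM. The Skil call was lost in 4 of 16 alternatives and that of Pmepa1 in 2, with adjusted p up to 0.131 and 0.0743. Smad7, the relative of Smad6, measured 27.6 and 24.0 FPKM with and 30.9 and 25.3 without, which overlap (change 0.12, limma adjusted p = 0.506).

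Of 11 tested target genes, 5 of them members, 4 rose and 3 fell (median 0.02). Dusp9, a phosphatase gene that BMP is known to maintain in embryonic stem cells, fell from 32.2 and 34.4 to 11.5 and 13.9 FPKM (log2 change -1.36, limma adjusted p = 0.00259). Msx2, a homeobox gene, rose from 0.630 and 0.529 to 1.74 and 1.71 FPKM. Of the called targets, Dusp9, Id3 and Zfp423 were lower and Id4, Smad6, Msx2 and Gata2 higher. Id3, Id4 and Smad6 are members, so this is not a split apart from theirs. Msx2 and Gata2 were tested only through their level without doxycycline, and the remaining called targets, Dusp9 and Zfp423, both fell. The calls of Dusp9 and Msx2 held in each of the alternatives in which they were tested.

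The listed helix-loop-helix genes, for E proteins and other factors of this class, were higher in 4 of 6 tested cases and lower in 0. The count of lower genes was also 0 at an unadjusted limma p under 0.05, and the list median was 0.48. Whether each product pairs directly with Id proteins was not tested, and Tal1 was tested only through its level without doxycycline. Among all genes tested, 19.4% were higher and 20.9% lower. The E protein gene Tcf4 rose from 9.28 and 10.8 to 14.6 and 14.2 FPKM and Tcf12 from 10.9 and 12.3 to 15.7 and 17.3 FPKM. The third E protein gene, Tcf3, was the most abundant and measured 53.7 and 56.6 FPKM with and 49.7 and 57.7 without, a change of -0.04 (limma adjusted p = 0.763). Tal1 rose from 0.635 and 0.730 to 2.15 and 2.28 FPKM, and Hes1 from 26.4 and 24.4 to 39.3 and 32.0 FPKM. The calls of Tcf4 and Tcf12 were lost in 4 of 16 alternatives each and that of Hes1 in 6, including the most abundant isoform alone, where the change of Tcf4 was 0.09 (adjusted p = 0.918).

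**Figure D5:**
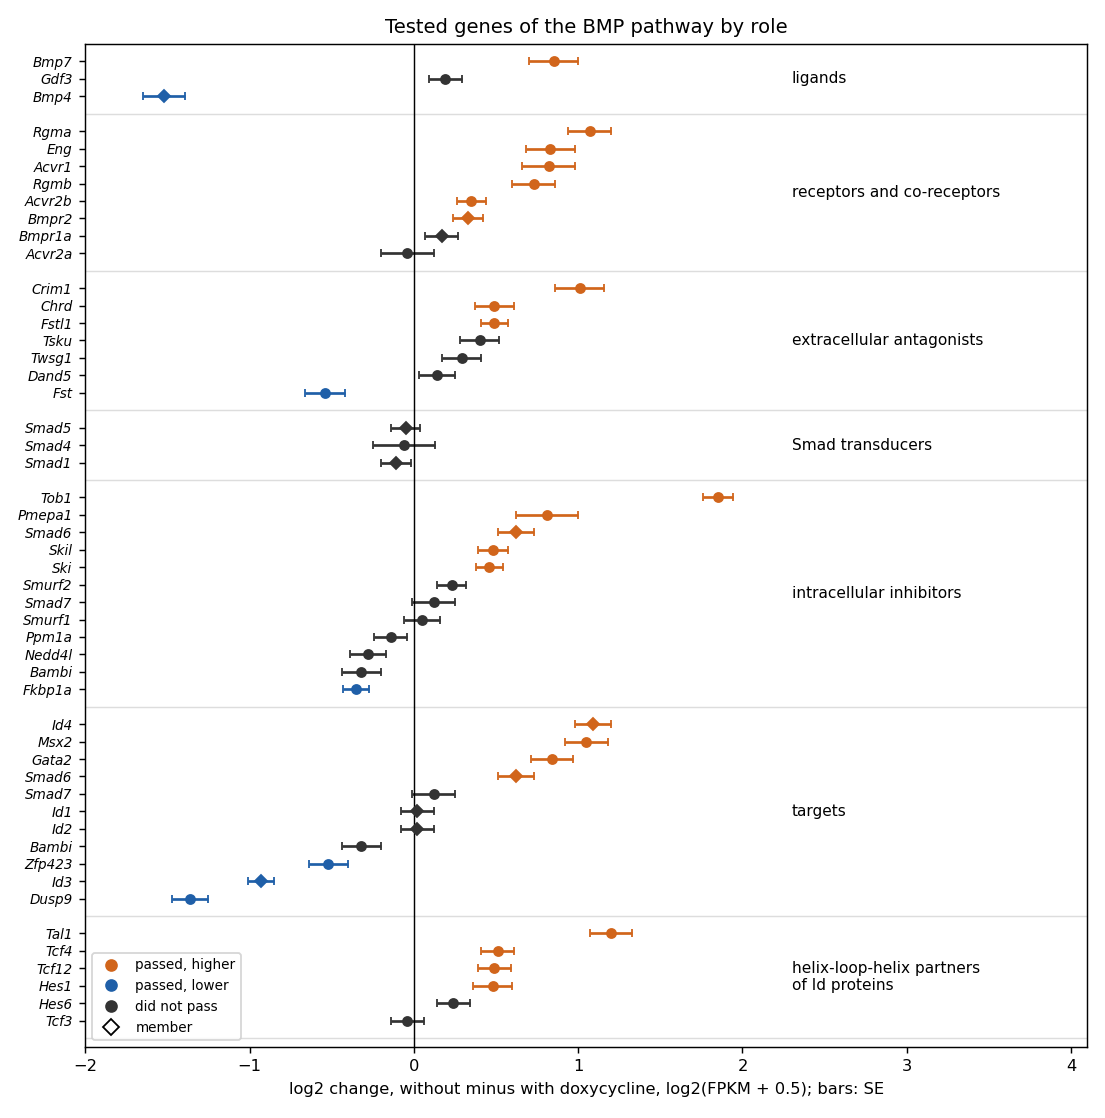
Log2 change, without minus with doxycycline, of every tested gene of the BMP pathway lists, grouped by role, with SE as bars. Orange points passed higher, blue points passed lower and black points did not pass, and diamonds are members. Receptors and co-receptors lie at or above 0 except Acvr2a, Smad transducers lie near 0, and targets lie on both sides.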

How the data were processed

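The deposited values are FPKM per isoform. Per the submitters' processing notes, the authors used TopHat2 2.0.9, build NCBIM37 and Cufflinks 2.1.1. Isoforms come from a merged assembly (Cuffmerge, per the deposited annotation), from which exon lengths and coordinates (counted from 1) were taken. Gene symbols that a spreadsheet had turned into dates (25) were restored from the table of the doxycycline libraries. Isoforms under 200 nt held 98.94% to 99.59% of the summed FPKM of a library and were left out. Isoforms of at least 200 nt with class code = or j (141569 of 181027) were summed per gene. A gene was tested where its mean reached 1 FPKM with or without doxycycline. The test was limma 3.58.1 with a trend (R 4.3.3) on log2(FPKM + 0.5), two-sided, with 3.1 prior and 2 residual degrees of freedom. It was unpaired, because the library numbers 0 and 1 could not be matched to the labels' replicates. Python 3.11.15 was used for the rest. The fit and the step search were also run on simulated data, as a check of the code. The simulation for the fit changed far fewer genes than were called here, and by more than many of these changes. It therefore gives no error rate for these data. Members and lists were chosen with earlier results of these data known. The text names the members, Ago2 and, per list, up to 4 genes past the threshold by size of change. Other genes named with values (Gdf3, Smad4, Smad7, Tcf3, the markers) were chosen after their values were seen, as were those named in counts. The 2 spike-in samples, and protein sequences, were not analysed here. The result of 1 marker list is not reported here. Alternatives were the pseudocount, the minimum level, scaling, isoform choice, the trend, a library block and leaving out each library.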

Additional observations from a re-analysis of the deposited data

How the results depend on the processing

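Over the 29 genes named by rule, 450 values under alternatives were compared: 388 kept direction and call, 50 lost the call, 1 gained it and 11 changed sign, each of the last without a call on either side. Members called numbered from 4 to 6 in the alternatives (2 to 4 higher, 2 lower in each), against 5. The replicate block, with the library number as a term, gave 8123 calls over all genes (4516 lower) and added Bmpr1a (log2 change 0.17, adjusted p = 0.0441). Same-numbered libraries deviated together across genes (r = 0.46), but nothing in the labels ties the numbers to a shared culture or day. Id1 changed sign with the condition medians set equal (-0.05) and ranged from -0.07 to 0.10 over libraries left out, and Id2 likewise (-0.05, and -0.06 to 0.10). Smad1 changed sign with TPM (0.04), and Smad5 with TPM (0.10), the most abundant isoform (0.14), the median change set to 0, an alternative chosen after seeing the data (0.00), and a doxycycline library left out (range -0.12 to 0.01).

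The most abundant isoform alone gave 2023 calls (1046 higher, 977 lower) and isoforms of class = alone 2565 (1266 and 1299). TPM gave 3941 higher. Leaving out 1 library gave from 3065 to 4197 calls, of them 1700 to 1974 higher and 1318 to 2365 lower. Pathway genes called were 18 (13 higher) at a minimum of 5 FPKM, 13 (10 higher, 3 lower) with the most abundant isoform, 16 (12 higher) with class = alone and 17 to 23 (13 to 18 higher, 3 to 5 lower) with a library left out, against 28. Among ratios, the most abundant isoform gave -1.05 for Id3 to Id1, 0.02 for Bmpr2 to Bmpr1a and -0.25 for Smad1 to Smad5, and class = alone -0.11 for the last. The causes were not tested. Depth limits Bmp4 most among the members, and 2 libraries a condition limit all of them.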

Other observations

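The assembly holds a 3-exon transcript of 735 nt on the plus strand opposite the start of Bmpr1a (chromosome 14, 35314901 to 35315870, build NCBIM37), which carries the symbol Bmpr1a and was left out of its sum as an antisense form. It measured 1.16 and 1.59 FPKM with doxycycline and 2.28 and 0.920 FPKM without, and the conditions overlapped.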
